A study of Ostrinia furnacalis with 9 samples.

Results

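In heads of Ostrinia furnacalis larvae, 543 places carried a called peak of both H3K9me3 and H3K27me3 in the pre-diapause lists and no peak of either mark in the non-diapause or diapause lists. They were found by joining all peaks of the 6 deposited lists that shared at least 1 bp, which gave 10958 places on 1418 scaffolds. Of these, 4290 places had both marks at pre-diapause, and the 543 were those with no peak in the other 4 lists. They made up 4.96% of all places, 12.7% of the places with both marks at pre-diapause, 7.54% of those with H3K9me3 then and 8.39% of those with H3K27me3 then. The places were chosen by the called peaks themselves, present or missing in each list, so the counts, strengths and absences below describe them and support no inference about stage.

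Ostrinia furnacalis, the Asian corn borer, is a moth that passes bad seasons as a larva in diapause, a state of arrested development set by day length and hormones. The colony lived at 27 °C on a 16 h day and 8 h night. Freshly moulted larvae of the fourth instar were moved to 20 °C with day and night of 12 h each. They counted as pre-diapause when held there for 20 days and as diapause when held for at least 30 days. No regime of their own is given for non-diapause larvae, so temperature, day length and age on the regime cannot be told apart from the state. Whole heads were used, which hold many cell types, and the number of animals per sample is not given in the sources used here. Each mark and stage had 1 peak list and the 3 inputs had none, so there was no replicate error and no test between stages.

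H3K9me3 is the mark of constitutive heterochromatin. It is written by SU(VAR)3-9 and SETDB1 type enzymes, is bound by HP1 proteins, and is known from silenced repeats and transposons. H3K27me3 is written by the Polycomb repressive complex PRC2 and is known from developmental genes held off in a cell-type-specific way. The marks mostly lie apart in well-studied animal genomes. In bulk heads, a place with both can hold them on the same chromatin or in different cells, and these cannot be told apart.

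The strongest places were short stretches in which both marks were called with high confidence. Strength was taken from the authors' −log10 q, the peak caller's false discovery measure, and from the authors' fold, the enrichment of the immunoprecipitated library over its background averaged over the peak. Folds are read within a list. By the lower −log10 q of the marks, the first place was NW_021137595.1 164390–164731. Its −log10 q was 30.3 for H3K9me3 and 23.8 for H3K27me3, and its folds were 2.43 and 2.07. NW_021133765.1 56139–56488 followed with a −log10 q of 27.7 and 23.1 and folds of 2.57 and 2.21. NW_021132157.1 230444–230825 had a −log10 q of 23.9 and 21.4 and folds of 2.92 and 2.57. These were the only 3 members with a −log10 q of at least 20 for both marks, and all had folds below the median of their lists, which was 3.33 for H3K9me3 and 3.31 for H3K27me3.

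The other 7 of the 10 strongest places had a lower −log10 q between 15.5 and 19.0, and 6 of them had folds above 4 for both marks. NW_021133080.1 408629–409005 had folds of 5.87 for H3K9me3 and 5.10 for H3K27me3. NW_021133324.1 190633–191364, at 732 bp the widest of the 10, had folds of 6.77 and 5.34, and the former was the highest H3K9me3 fold of any member. NW_021137693.1 101822–102324 had 6.30 and 6.41, the highest lower fold of all members. At NW_021130826.1 385706–386197 the folds were 5.89 and 4.14, and at NW_021132152.1 483693–484113 they were 6.42 and 5.48. NW_021130331.1 266068–266510 had 6.01 and 8.37, the latter the highest H3K27me3 fold of any member, with a −log10 q of 15.5 and 35.2. The remaining place, NW_021134923.1 329–652 near the start of its scaffold, had low folds of 2.69 and 2.56. Ranked by the lower fold instead, 2 further places entered the first 5. They were NW_021131337.1 497148–497580, with 5.61 and 7.38, and NW_021136920.1 544755–545168, with 5.88 and 5.50.

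A small group of members had high −log10 q at low fold, as did some other places with both marks. The group was picked out after its values were seen. Of the 51 members with a −log10 q of at least 10 for both marks, 8 had folds under 3 for both, or 15.7% (7.02–28.6). Here and below, ranges after a percentage are 95% Clopper-Pearson (exact binomial) intervals for counting error alone. Among the other places with both marks at pre-diapause and a −log10 q of at least 10, the share was 78 of 1240, or 6.29% (5.00–7.79). The intervals overlap. Besides the 4 such places named above, the group held NW_021137617.1 19981–20362, NW_021134909.1 107061–107385, NW_021132902.1 23578–24521 and NW_021131019.1 205668–206551. Widths were between 324 and 944 bp, with a median of 366 bp. At a given fold, −log10 q grows with the number of reads behind a peak, but read numbers are not in the lists, so the coverage at these places was not measured.

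As a whole the members were of modest strength. The H3K9me3 fold ran from 1.55 to 6.77 with a median of 3.30, and the H3K27me3 fold ran from 1.53 to 8.37 with a median of 3.03. The middle 50% lay between 2.78 and 3.99 for H3K9me3 and between 2.62 and 3.69 for H3K27me3. Both folds reached 5 in 13 members and both were under 3 in 175. The median −log10 q was 5.64 for H3K9me3 and 5.62 for H3K27me3, against 6.49 and 6.82 in the whole pre-diapause lists. In 11 members the H3K9me3 peak was among the strongest 10% of that list, or 2.03% (1.02–3.60). In 16 the H3K27me3 peak was, or 2.95% (1.69–4.74). Over all places with both marks at pre-diapause these shares were 15.4% and 15.2%. In places with H3K9me3 only or H3K27me3 only at pre-diapause alone they were 0.689% and 0.0891%. At least one of the marks had a −log10 q under 3 in 102 members, and both did in 20.

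The folds of the marks went together across the members more closely than their −log10 q. Across the 543 places the log2 folds had a Pearson correlation of 0.80, the folds a Spearman correlation of 0.79 and the −log10 q values a Spearman correlation of 0.59. At the 3747 other places with both marks at pre-diapause the fold correlations were 0.86 and 0.82. The points share a stage and the same stretch of sequence, and whether they share chromatin or a background library is not given. H3K9me3 ranked higher in its list than H3K27me3 in 277 members, and the reverse held in 266.

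**Figure D1:**
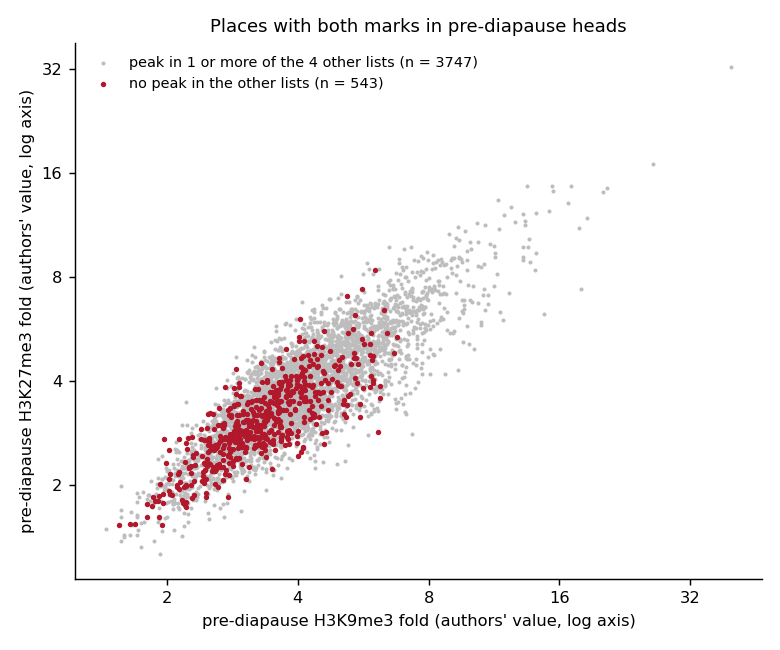
Authors' fold of H3K9me3 (x axis, log scale) against that of H3K27me3 (y axis, log scale) for each of the 4290 places with both marks at pre-diapause. The 543 places without a peak in the other 4 lists (red) lie in the lower and middle part of the cloud, up to folds of 6.77 and 8.37, while the other 3747 (grey) reach 39.7 and 32.4.

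A few members ranked higher in one list than in the other, taken as the ratio of their rank shares by −log10 q. This ratio favours places near the top of a list over those further apart in percent. The largest lead of H3K9me3 was at NW_021135683.1 228096–228684, where the H3K9me3 peak stood in the top 7.89% of its list by −log10 q and the H3K27me3 peak in the top 77.3%, with folds of 6.12 and 2.84. NW_021137587.1 1186920–1187484 had folds of 5.56 and 3.15 and NW_021130655.1 520985–521497 had 6.18 and 3.57. In the other direction, H3K27me3 led most by this ratio at NW_021130331.1 266068–266510, already named among the strongest for both marks. It stood in the top 2.19% there and H3K9me3 in the top 13.6%. NW_021131312.1 71349–71728 followed, with an H3K9me3 fold of 4.05 and an H3K27me3 fold of 6.05, then NW_021130308.1 490834–491266, with 5.20 and 7.05. In percent, other members stood further apart than NW_021130331.1 266068–266510, such as one in the top 41.3% for H3K27me3 and 97.9% for H3K9me3. The ranks come from separate lists and have no error, so these leads are values only.

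The members were narrower at the median than all places, but not than single-mark places called at pre-diapause alone. Their width ran from 308 to 2287 bp with a median of 513 bp, and 60 were wider than 1 kb, or 11.0% (8.54–14.0). All places had a median of 572 bp, and 19.7% were over 1 kb. The H3K9me3-only and H3K27me3-only places at pre-diapause alone had medians of 453.5 and 365 bp, with 11.1% and 4.10% over 1 kb. A place of joined peaks is at least as wide as each of them, and these differences were not tested. The H3K9me3 peaks in them had a median width of 429 bp and the H3K27me3 peaks 408 bp, against 537 and 514 bp in the whole pre-diapause lists. The narrowest peaks in both lists, 303 bp for H3K9me3 and 292 bp for H3K27me3, were also found among the members. In 542 members the place was made of 1 peak of each mark, and the last, NW_021135997.1 436024–437799, held 1 H3K9me3 and 2 H3K27me3 peaks. Such a place can arise only where the peaks share sequence, so the marks overlapping in all 543 members follows from the rule. How much they shared does not.

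Peaks of both marks covered most of a typical member, and less than 50% of most members over 1 kb. The shared stretch had a median of 355 bp and made up a median of 79.2% of the place. Over all places with both marks at pre-diapause, members included, that median was 83.1%. In 113 members, or 20.8% (17.5–24.5), the stretch made up at least 90%, against 28.4% of all those places. In 89 members, or 16.4% (13.4–19.8), it made up less than 50%, against 11.2%. The H3K27me3 peak lay inside the H3K9me3 peak in 126 members, the reverse held in 107, and in 310 the ends were staggered. Among the 60 members over 1 kb the median share was 36.6%, and 39 of them, or 65.0% (51.6–76.9), shared less than 50%. Among the other places with both marks whose pre-diapause peaks spanned over 1 kb, 246 of 1078 did, or 22.8% (20.3–25.4). Those places include ones with several peaks of a mark, and the difference was not tested.

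The 5 widest members each paired a broad peak with a short one. At NW_021130635.1 470742–473028 an H3K9me3 peak of 2287 bp enclosed an H3K27me3 peak of 782 bp. At NW_021133257.1 107020–109063 it was an H3K27me3 peak of 2044 bp that enclosed an H3K9me3 peak of 344 bp. NW_021137607.1 241468–243415 had an H3K9me3 peak of 1948 bp and an H3K27me3 peak of 746 bp. NW_021137793.1 351299–353248 and NW_021135175.1 341437–343295 had H3K9me3 peaks of 1870 and 1807 bp, which shared 333 and 286 bp with the H3K27me3 peaks. The folds at these 5 places were between 2.63 and 4.12. H3K9me3 was the wider mark in 35 of the 60 members over 1 kb and H3K27me3 in 25. The least sharing of any member was 9 bp, at NW_021137026.1 28330–29493.

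**Figure D2:**
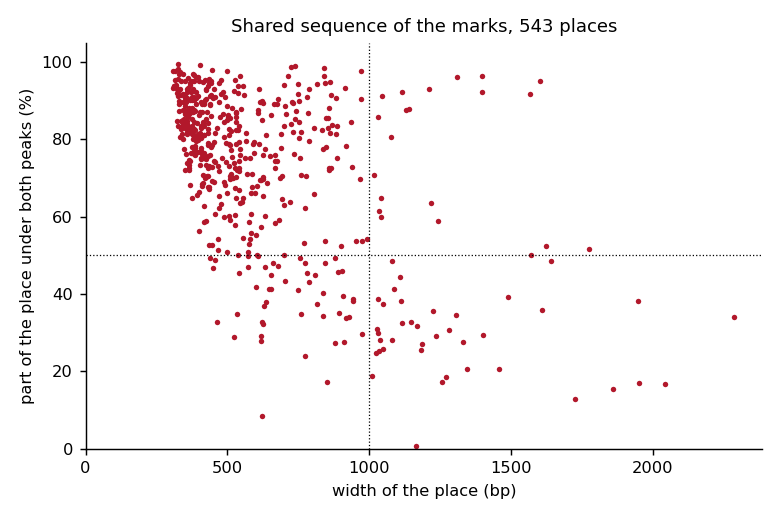
Width of each of the 543 places in bp (x axis) and the part of it under both an H3K9me3 and an H3K27me3 peak in percent (y axis), with dotted lines at 1000 bp and 50%. Most points sit at the upper left, and 39 of the 60 places right of 1000 bp lie under 50%.

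Places with both marks at pre-diapause had lower median folds and spans the fewer other lists they recurred in. The 543 members stood lowest in this pooling, though not below every single pattern of recurrence. The median H3K9me3 fold at pre-diapause was 3.30 with no other list, 3.39 with 1, 3.78 with 2, 4.08 with 3 and 4.52 with all 4. The median H3K27me3 fold was 3.03, 3.12, 3.55, 3.82 and 4.21 in the same order. The pre-diapause peaks spanned a median of 513, 564, 617, 717.5 and 898 bp. The 95% intervals of the median fold overlapped between no and 1 other list for both marks, at 3.21–3.39 and 3.28–3.48 for H3K9me3 and at 2.93–3.14 and 3.04–3.18 for H3K27me3. Those of the median span also overlapped, at 487–534 and 532–603 bp. The numbers of places were 543, 584, 984, 974 and 1205. A peak of another list can join several pre-diapause peaks into a place, which then takes the strongest fold and spans the gaps between them. Higher folds and spans with recurrence can therefore follow in part from the rule, which was not tested. These groups also pool unlike patterns. The 83 places that recurred in diapause H3K9me3 alone had median folds of 3.18 for H3K9me3 and 2.82 for H3K27me3. The 117 that recurred in diapause H3K27me3 alone had 3.21 and 3.17, with a span of 510 bp. Recurrence in non-diapause H3K9me3 alone, at 290 places, went with 3.51 and 3.11. In non-diapause H3K27me3 alone, at 94 places, the medians were 3.42 and 3.35.

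**Figure D3:**
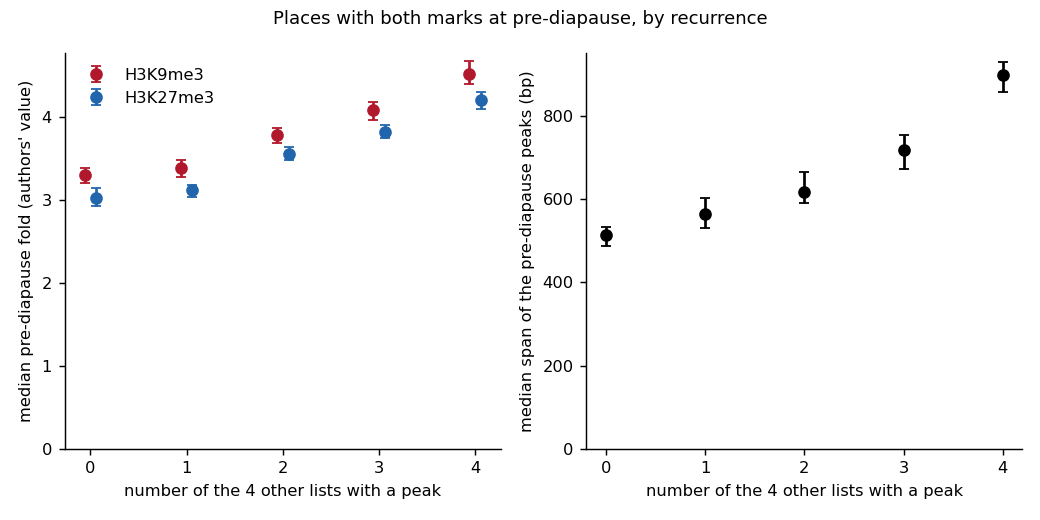
Median pre-diapause fold of H3K9me3 (red) and H3K27me3 (blue) in the left panel and median span of the pre-diapause peaks in bp in the right panel, by how many of the 4 other lists had a peak in the place. Bars are 95% order-statistic intervals of the median, for counting error only, and all medians are lowest with no other list.

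Put the other way, the share of places called at pre-diapause alone was highest where the pre-diapause calls were weakest. The 4290 places were split into 5 parts of 858 by the lower −log10 q of the marks. The members' share was 27.4% (24.4–30.5) in the weakest part, then 14.7% (12.4–17.2), 10.96% (8.94–13.2) and 7.81% (6.10–9.81), and 2.45% (1.52–3.72) in the strongest. By the lower fold it was 21.0% (18.3–23.9) in the lowest part and 2.80% (1.80–4.13) in the highest. By the span of the pre-diapause peaks it was 25.2% (22.3–28.2) in the narrowest and 4.20% (2.96–5.76) in the widest. A wider place has more sequence in which a peak of another list can fall. This trend and the rise of span with the number of other lists can therefore follow from the rule, and neither was tested. The trends by −log10 q and fold can also follow from it in part. Places in which a peak of another list joins several pre-diapause peaks take the strongest value, and how much this added was not tested. Absence from a list means that no peak passed the authors' threshold, the weakest −log10 q in any list being 2.01, and the mark may still have been there.

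**Figure D4:**
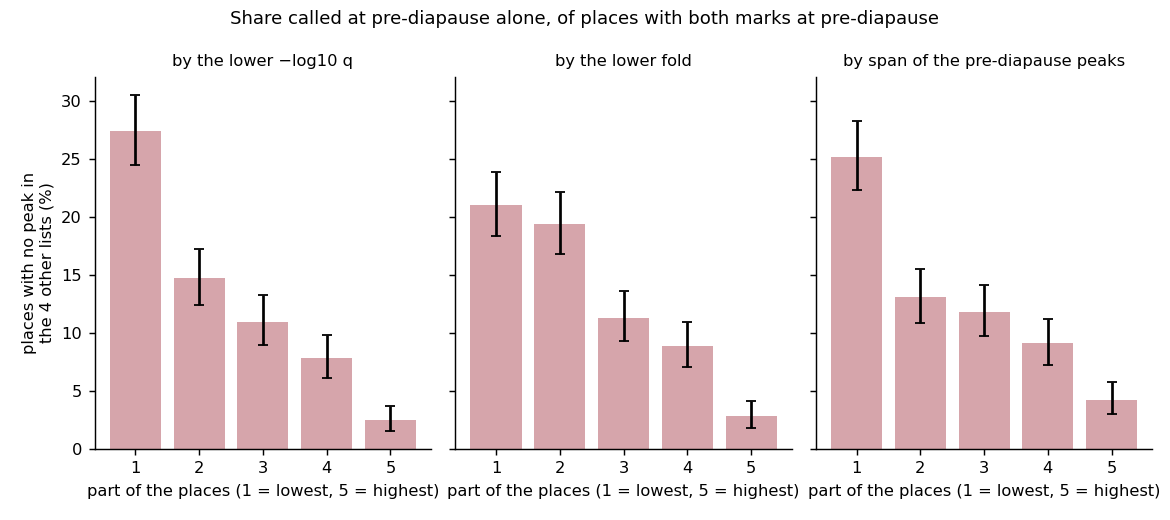
Share of places with no peak in the 4 other lists (y axis, percent, with exact 95% intervals) in each of 5 equal parts of the 4290 places with both marks at pre-diapause, ordered from lowest to highest by the lower −log10 q, the lower fold or the span of the pre-diapause peaks. In each panel the lowest part has the highest share and the highest part the lowest.

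The threshold for a call set the edge of the set. Ranked by the higher −log10 q of the marks, the members just inside it were NW_021131245.1 478956–479497, with a −log10 q of 2.14 and 2.54 for H3K9me3 and H3K27me3, NW_021130308.1 1226969–1227994, with 2.55 and 2.37, and NW_021134684.1 9112–9698, with 2.37 and 2.58. Just outside were places kept out by a single weak peak of another stage. At NW_021131363.1 22566–24283 a non-diapause H3K9me3 peak had a −log10 q of 2.06, and at NW_021137638.1 8576–9304 a non-diapause H3K27me3 peak had 2.11. At NW_021134327.1 121042–121671 a non-diapause H3K9me3 peak had 2.16. In all, 584 places had a peak in exactly 1 of the other 4 lists. That list was non-diapause H3K9me3 in 290 of them, diapause H3K27me3 in 117, non-diapause H3K27me3 in 94 and diapause H3K9me3 in 83. The median −log10 q of that peak was 5.03, 5.07, 4.34 and 5.62, against 6.43, 5.38, 6.40 and 5.37 in the whole lists.

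Beside places with 1 mark at pre-diapause alone, the members' peaks were stronger in −log10 q. A total of 1886 places had H3K9me3 alone and 1122 had H3K27me3 alone, with no other peak. The median H3K9me3 fold was 3.30 in the members and 2.80 (95% interval of the median 2.77–2.84) in the H3K9me3-only places, with a −log10 q of 5.64 and 4.15. The median H3K27me3 fold was 3.03 and, in the H3K27me3-only places, 2.90 (2.85–2.94), with a −log10 q of 5.62 and 4.40. A weak peak of one mark needs a second call to become a member, so a higher strength can follow from the rule, and it was not tested. Beside the 611 places with both marks at non-diapause and pre-diapause and none at diapause, the members were weaker, since those had median folds of 4.04 and 3.87. This did not hold beside the 70 places with both marks at pre-diapause and diapause and none at non-diapause. Their median folds were 3.08 for H3K9me3 and 3.06 for H3K27me3.

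Pre-diapause had by far the most places with both marks at a single stage in the lists as deposited, and this order did not hold in lists of equal length. As deposited, 36 places had both marks at non-diapause alone, 543 at pre-diapause alone and 68 at diapause alone. Of the places called at that stage alone with either mark, these were 8.82% (6.26–12.0), 15.3% (14.1–16.5) and 6.65% (5.20–8.36). The pre-diapause lists were the longest, with 7225 H3K9me3 and 6539 H3K27me3 peaks on scaffolds against 3504 to 4483 in the other 4. With each list shortened to its 3504 strongest peaks, the counts were 110, 153 and 182, so diapause came first. The shares were then 16.8% (14.0–19.9), 15.0% (12.8–17.3) and 10.0% (8.67–11.5). Shortening took the pre-diapause lists to a −log10 q of 6.64 and 6.42 and the others to between 2.05 and 4.02. The pre-diapause lists lost the most peaks. A place can therefore enter the non-diapause or diapause count by losing a deposited pre-diapause peak, and how many did was not counted. Of the 543 members, 144 still had both marks at pre-diapause alone, 60 had H3K9me3 and 88 H3K27me3 only, and 251 had no peak left. The 9 further places in the shortened set had lost a weaker peak of another stage. Depth of the libraries is unknown, and its part in the list lengths was not tested.

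**Figure D5:**
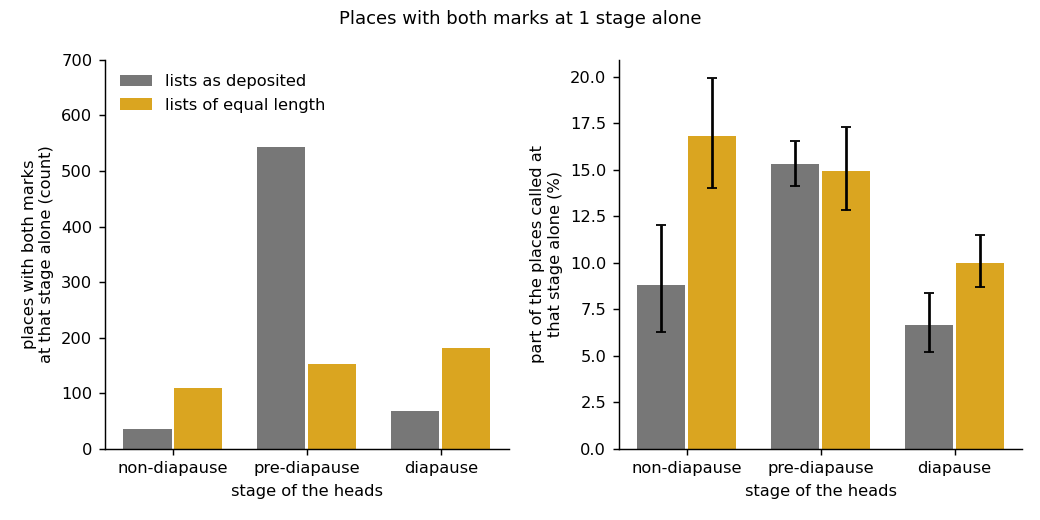
Places with both marks at 1 stage alone, as a count (left) and as a percent of all places called at that stage alone (right, with exact 95% intervals), in the lists as deposited (grey) and in lists of equal length (yellow). The pre-diapause count of 543 against 36 and 68 becomes 153 against 110 and 182.

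The members lay scattered over the assembly. They were found on 375 of the 1418 scaffolds, or 26.4%, and 262 scaffolds held 1 member each. NW_021134484.1 held the most, 6 of its 51 places, spread over 1029 kb. The H3K9me3 folds there ran from 2.44 to 4.53 and the H3K27me3 folds from 2.21 to 3.39. NW_021131019.1, NW_021131041.1 and NW_021135175.1 held 5 each, of 42, 48 and 21 places. The share on NW_021135175.1, 23.8% (8.22–47.2), was the highest of these, with an interval that still takes in that of NW_021134484.1, 11.8% (4.44–23.9). On NW_021135175.1 the members ran from 218996 to 993483, with H3K9me3 folds of 3.35, 2.93, 3.95, 3.78 and 4.73 in order of position and H3K27me3 folds of 2.77, 2.70, 4.12, 2.87 and 4.87. The last of them was the strongest for both marks.

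Members were not much more often neighbours than places in general. The next place along the scaffold was also a member after 31 of 471 members, or 6.58% (4.52–9.21), and after 467 of 9540 places of any kind, or 4.90%, which lies inside that interval. The closest pair lay 3160 bp apart on NW_021136622.1, at 25206–25644 and 28805–29196. Its H3K9me3 folds were 2.91 and 2.66 and its H3K27me3 folds 3.42 and 2.69. A second member lay within 10 kb of 22 members and within 100 kb of 131.

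Few members were the edge of a place marked at another stage. A peak of another stage lay within 1 kb of 16 members, or 2.95% (1.69–4.74), and 22 members had none on their scaffold. For places called at pre-diapause alone with H3K9me3 only the share was 5.30% (4.33–6.41), and with H3K27me3 only 7.58% (6.10–9.28). Few close neighbours were not particular to the members. Another place of any kind lay within 1 kb of 5.52% of members and of 4.50% of all places with both marks at pre-diapause. For the H3K9me3-only and H3K27me3-only places called at pre-diapause alone it was 11.1% and 10.6%. The peaks near the 16 members were of non-diapause H3K9me3 at 10, non-diapause H3K27me3 at 9, diapause H3K27me3 at 7 and diapause H3K9me3 at 1. The nearest was 226 bp from NW_021131835.1 28839–29371. Over all members with such a peak on their scaffold, the median gap was 20075 bp. The nearest place of any kind carried both marks at some stage for 285 members, or 52.5% (48.2–56.8), against 51.7% (50.1–53.3) for the other places with both marks at pre-diapause. Within the first 1 kb of a scaffold lay 10 members, or 1.84% (0.887–3.36), against 2.50% (2.22–2.81) of all places.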

How the data were processed

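The submitters' processing notes name Bowtie2, Picard, MACS2, ChIPseeker and deepTools and give neither version nor setting. The genome build, the background library of the peak caller and any pooling are not given in the sources used here. Each of the 6 deposited lists has 9 columns and no header and was read as the MACS2 broad-peak layout. The deposited fold is a ratio, the −log10 p and −log10 q values are the peak caller's, and the deposited score is 10 times the −log10 q as a whole number. No list gives read totals, so depth is unknown. Coordinates follow the deposited lists, counted from 1.

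One sequence with another kind of RefSeq name, with 12 of the 29330 peaks, was left out. Peaks sharing at least 1 bp were joined, and a place with several peaks of a list took its strongest. Spans at pre-diapause use pre-diapause peaks only. Joining and sharing were tested on simulated lists. Python 3.11.15, numpy 2.4.6, pandas 2.3.3, scipy 1.17.1 and matplotlib 3.10.9 were used. Alternatives were a −log10 q minimum, lists of equal length, a larger overlap, a gap, or at least 1 bp shared between the marks. A stricter minimum and leaving out scaffold starts were chosen after seeing the data.

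Named places are the 10 highest by lower −log10 q, the 5 by lower fold, the 5 widest and those nearest the threshold. Those with the largest ratios of rank share, the closest pair and the scaffolds with most members were also named. NW_021135175.1, tied with others in members, the member with 3 peaks, the one with least sharing, the one nearest another stage's peak and the low-fold group were named after their values were seen. The members and rules were chosen with earlier results of these data known. The gene table used here places 0 of its 17154 genes on a named sequence, so genes at the members and their sequences were not analysed here.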

Additional observations from a re-analysis of the deposited data

How the results depend on the processing

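Of 70 values recomputed under alternatives, 52 stayed within 1.5 times the count or within the 95% interval of the value as reported. The 52 include the share of members whose peaks share sequence, which the rule fixes at 100% where peaks are joined by overlap. They also include all values of the alternative asking that the peaks of the marks share at least 1 bp. That alternative leaves the members unchanged by construction, so its values are no check. The number of members was between 441 and 545 under the alternatives set out at the start other than equal length, which gave 153, and a −log10 q of at least 10 in the pre-diapause lists gave 51. Their share of places with both marks at pre-diapause, 12.7%, was 6.78% with equal length, 10.99% with a pre-diapause −log10 q of at least 3 and 3.95% with at least 10. The median width was 419, 479 and 414 bp in the same order. The median H3K9me3 fold was 4.28, 3.49 and 5.04 and the median H3K27me3 fold 3.93, 3.20 and 4.47. The median H3K27me3 fold was 3.16 with a −log10 q of at least 3 in all lists. These alternatives drop weak peaks by construction. With peaks up to 500 bp apart joined, 99.1% of members had peaks that shared sequence. With equal length, the share of single-stage places with both marks was 16.8% at non-diapause and 10.0% at diapause. No paired analysis was possible because each mark and stage has 1 list. Unknown depth limits every statement that a peak was not called.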
